A study of Mus musculus with 3 samples.

Results

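Barcodes rich in haemoglobin were the droplet barcodes of 3 mouse liver libraries in which the 4 adult globin genes Hbb-bs, Hbb-bt, Hba-a1 and Hba-a2 together made up at least 10% of all UMIs (unique molecular identifiers, 1 per captured RNA molecule). Barcodes with over 40% of their UMIs from mitochondrial genes were left out first. The rule found 310 barcodes among 29572 kept and 30000 deposited. The library labelled flox/flox held 7 of 9774, the library labelled wt/flox 264 of 9920, and the library labelled wt/wt 39 of 9878. The globin counts chose these barcodes, so every globin level below is a description and none was tested.

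The libraries came from livers of male C57BL/6 mice aged 9 weeks, 1 library per genotype, prepared with the 10x Genomics 3' kit. At the Adar1 locus, named Adar in the files, the mice were Adar1flox/flox, Adar1wt/flox or Adar1wt/wt. All 3 were Ifih1-/-, lacking an RNA sensor, and all 3 were Alb-Cre+, with Cre driven by the albumin promoter and so meant for hepatocytes and not for blood cells. By the protocol, livers were perfused through the inferior vena cava with buffer and then with collagenase, cells were spun at low speed, red cells were lysed in ACK buffer, and live cells were collected through Percoll.

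Haemoglobin is a tetramer of alpha and beta chains, each holding a haem group. Red cells make it during their last divisions, expel the nucleus, and circulate for a short while as reticulocytes, which still hold RNA, before the remaining RNA and organelles are cleared. Alas2 encodes the erythroid form of the enzyme that starts haem synthesis. In the adult liver, red cells pass through in the blood and old ones are taken up by Kupffer cells, while red cell production takes place in marrow and spleen.

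Library totals ran from 9744380 to 10756790 UMIs, and the lowest barcode of each library held 636, 721 and 727 UMIs in flox/flox, wt/flox and wt/wt. Libraries shared 20 to 32 barcode sequences in pairs, and 1 member, in wt/wt, had such a sequence. Adar, the targeted gene, had 0, 4 and 0 UMIs in the members of flox/flox, wt/flox and wt/wt. In the other barcodes it stood at 45.04, 22.0 and 13.5 counts per 1000000 UMIs (CPM), highest in the library labelled flox/flox and so against that label. A 3' tag outside the deleted part would not show the deletion, and the floxed exons are not given in the sources used here, so this level does not check the labels. Ifih1 had 0 UMIs in members of all 3 libraries and 0, 1 and 0 in the other barcodes. Library names below rest on the labels alone.

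The share of barcodes rich in haemoglobin differed between the libraries by more than counting error. It was 0.0716% in flox/flox (95% exact Clopper-Pearson interval 0.0288 to 0.148), 2.66% in wt/flox (2.35 to 3.00) and 0.395% in wt/wt (0.281 to 0.539). The library labelled wt/flox held 6.74 times the share of wt/wt (4.80 to 9.69). The library labelled flox/flox held 0.0269 times the share of wt/flox (0.0107 to 0.0562) and 0.181 times that of wt/wt (0.0685 to 0.410). These intervals, like all others here, cover counting error only, and with 1 library per genotype no replicate error and no test exist. Genotype, animal and the washing and lysis of each liver cannot be told apart.

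The share counts only barcodes that reached the deposit. Without their globin UMIs, 6 of the 7 members of flox/flox, 210 of the 264 of wt/flox (79.5%) and 31 of the 39 of wt/wt (79.5%) would have lain under the lowest UMI total of their library. The part of this edge in the difference between libraries was not tested.

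Most members were far inside the threshold. The median haemoglobin share was 43.2% of UMIs in flox/flox, 34.4% in wt/flox and 38.7% in wt/wt, and the highest were 49.0%, 51.7% and 54.1%. Across the threshold, the nearest barcodes inside held 10.6%, 10.9% and 13.7%, and the nearest outside held 0.148%, 9.64% and 8.99%. Between 1% and 10% there were 0, 36 and 5 barcodes. Nearly all other barcodes had no globin UMI at all, namely 99.8%, 97.6% and 99.4% of them. Of the others with a globin UMI but under 1%, 16 of 16 in flox/flox, 185 of 196 in wt/flox and 50 of 50 in wt/wt had exactly 1. Members held 99.3%, 97.9% and 98.3% of the globin UMIs of the kept barcodes of their libraries. Over all deposited barcodes globins made up 0.0217%, 0.905% and 0.182% of all UMIs in flox/flox, wt/flox and wt/wt. In the other barcodes globins made up 1.51, 197 and 30.6 of every 1000000 UMIs.

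**Figure D1:**
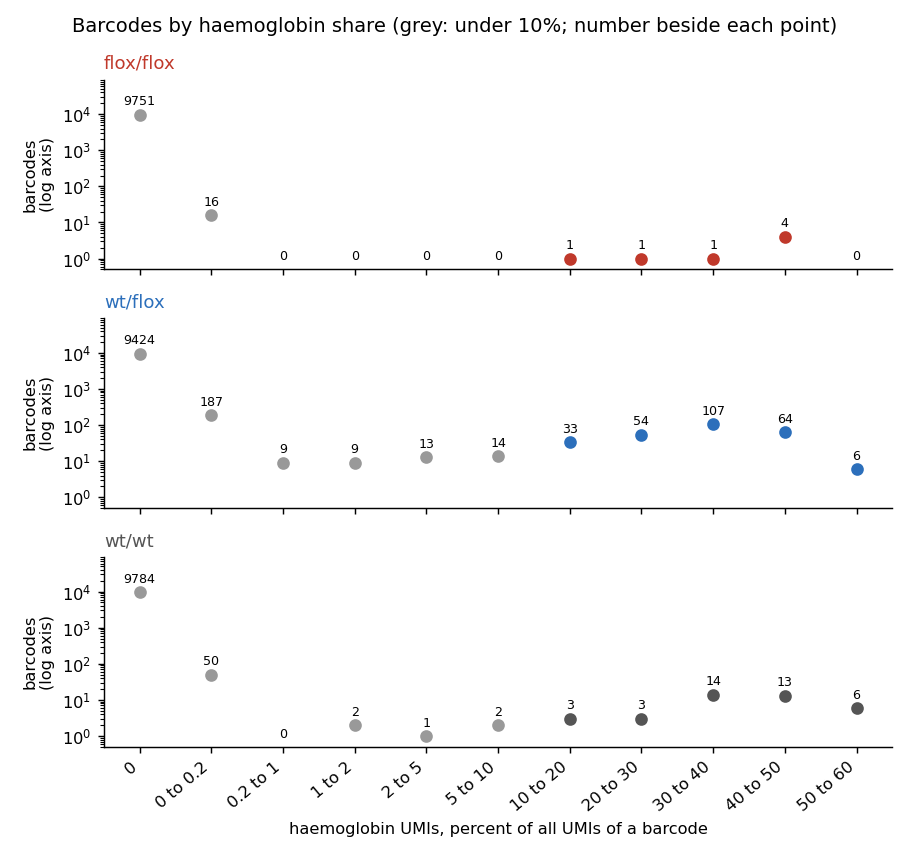
Number of barcodes (log axis) in each range of haemoglobin share (percent of a barcode's UMIs) for the libraries labelled flox/flox, wt/flox and wt/wt, top to bottom, with coloured points for barcodes at 10% or more and grey points below. A gap or a thin range between 0.2% and 10% separates the members from the 9751, 9424 and 9784 barcodes without a globin UMI, and the fullest range of members is 40 to 50% in flox/flox and 30 to 40% in wt/flox and wt/wt.

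The members held few UMIs apart from the globins. Their median of UMIs from all other genes was 535 in flox/flox, 628.5 in wt/flox and 646 in wt/wt, against 932, 896 and 852 in the other barcodes. Their median of globin UMIs was 379, 336.5 and 450. They had a median of 345, 424.5 and 412 detected genes, against 571, 563 and 531 in the other barcodes. In wt/flox 18 members (6.82%) held more non-globin UMIs than the median other barcode of that library, whereas 0 members did in flox/flox and in wt/wt.

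**Figure D2:**
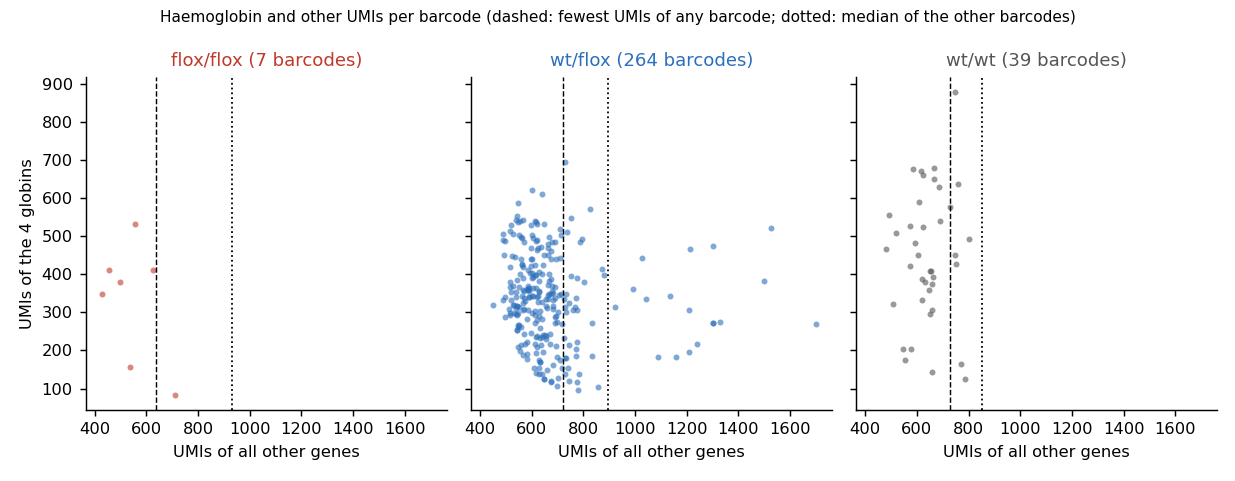
UMIs of the 4 globins against UMIs of all other genes in each member barcode of flox/flox (7), wt/flox (264) and wt/wt (39), left to right, with the lowest UMI total of the library dashed and the median of its other barcodes dotted. Most points lie left of the dashed line, and only wt/flox has members, 18 of them, right of the dotted line.

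The 4 globins of the rule lie in a beta cluster on chromosome 7 and an alpha cluster on chromosome 11. In GENCODE vM21 (GRCm38) Hbb-bs (ENSMUSG00000052305) spans 103826534 to 103828096 and Hbb-bt (ENSMUSG00000073940) 103812524 to 103813996 on chromosome 7, both on the minus strand. Hba-a1 (ENSMUSG00000069919) spans 32283511 to 32284465 and Hba-a2 (ENSMUSG00000069917) 32296489 to 32297298 on chromosome 11, both on the plus strand. Alas2 (ENSMUSG00000025270) spans 150547375 to 150570638 on the plus strand of chromosome X. The rule used the sum of the 4 globins, so that all 4 were high in the same barcodes is in part built in. As a description, the 120 bases upstream of each RefSeq start (GRCm38.p6) are shown 5′ to 3′ with those of Alas2. Shared control of these genes was not tested. Capitals mark the CCAAT motif, the CACCC motif, the TATAA motif and the GATAA motif and their reverse complements.
Hbb-bs, chr7:103827929-103828048, minus strand: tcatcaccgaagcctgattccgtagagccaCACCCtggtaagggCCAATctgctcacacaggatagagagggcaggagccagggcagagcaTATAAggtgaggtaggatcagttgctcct
Hbb-bt, chr7:103813924-103814043, minus strand: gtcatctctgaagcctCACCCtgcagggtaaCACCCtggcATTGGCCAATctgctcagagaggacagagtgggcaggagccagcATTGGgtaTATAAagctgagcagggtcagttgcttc
Hba-a1, chr11:32283552-32283671, plus strand: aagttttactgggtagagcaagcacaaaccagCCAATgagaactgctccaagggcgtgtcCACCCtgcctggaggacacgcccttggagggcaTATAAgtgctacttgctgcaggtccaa
Hba-a2, chr11:32296372-32296491, plus strand: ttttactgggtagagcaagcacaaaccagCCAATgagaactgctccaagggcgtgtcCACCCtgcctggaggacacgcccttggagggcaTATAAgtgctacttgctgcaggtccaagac
Alas2, chrX:150547297-150547416, plus strand: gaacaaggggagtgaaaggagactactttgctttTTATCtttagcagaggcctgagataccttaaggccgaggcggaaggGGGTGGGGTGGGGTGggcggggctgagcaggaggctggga

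All 4 globin windows held the CCAAT box, the CACCC box and the TATAA box, which began 29, 28, 27 and 30 bases upstream of the start in Hbb-bs, Hbb-bt, Hba-a1 and Hba-a2. Hbb-bt held CCAAT at 3 places and CACCC at 2, against 1 place each in Hbb-bs. The Alas2 window held neither a CCAAT box nor a TATAA box but had CACCC on the opposite strand at 3 places and GATAA on the opposite strand at 1. Of 32851 promoter windows of this length in the RefSeq table, 21.3% held CCAAT, 31.7% CACCC, 11.8% TATAA and 10.5% GATAA, on either strand. The alpha windows matched in 117 of 123 aligned columns and the beta windows in 91 of 122. All 5 GENCODE spans begin upstream of the RefSeq start used here. A match is a description of letters and not a bound site.

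Within each pair the coding sequences are near-identical, which limits how far the copies can be told apart. Hbb-bs and Hbb-bt differ at 1 of 444 coding bases but at 40 of 134 aligned columns after the stop codon, and 3' tags come mostly from there. Hba-a1 and Hba-a2 differ at 1 of 429 coding bases and, after the stop codon, in 16 of 90 aligned columns. How reads that match both copies were counted is not given in the sources used here, so the split within a pair is uncertain.

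Every globin was found in nearly every member. Hbb-bs, an adult beta chain gene, had 1266, 47895 and 9508 UMIs in flox/flox, wt/flox and wt/wt, and was present in 7 of 7, 264 of 264 and 39 of 39 members. Hba-a1 had 418, 16238 and 3269 UMIs and Hba-a2 had 344, 13641 and 2583, both in every member. Hbb-bt, the other adult beta chain gene, had 295, 11278 and 2118 UMIs and was missing from 1 member of wt/flox and 1 of wt/wt. Outside the members Hbb-bs had 9, 1113 and 182 UMIs in flox/flox, wt/flox and wt/wt.

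The balance of the chains was much the same in the 3 libraries although the number of members was not. Alpha chains made up 32.8%, 33.6% and 33.5% of globin UMIs in flox/flox, wt/flox and wt/wt. Hba-a2 made up 45.1%, 45.7% and 44.1% of alpha UMIs. Hbb-bt made up 18.9% (interval 17.0 to 20.9), 19.1% (18.7 to 19.4) and 18.2% (17.5 to 18.9) of beta UMIs. Over single members of wt/flox the alpha share had a median of 33.2% with an 80% range from 28.6% to 38.5%, while the Hbb-bt share of beta UMIs ran more widely, from 4.81% to 27.0% around a median of 18.8%.

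The Hbb-bt share of beta UMIs was higher in members with more haemoglobin. In wt/flox it was 10.4% (9.66 to 11.1) over the 53 members at 10 to 25% haemoglobin, 19.99% (19.6 to 20.3) over the 205 members at 25 to 50%, and 23.9% (22.1 to 25.7) over the 6 members above. In wt/wt it was 2.35% (1.13 to 4.27) over 4 members, 17.4% (16.6 to 18.2) over 29 and 23.3% (21.7 to 24.9) over 6. In flox/flox it was 7.27% (3.81 to 12.4) over 2 members and 20.3% (18.2 to 22.5) over 5. Both measures come from the globins that chose the barcodes, so these shares are a description, and the intervals leave out the spread between single members. The 7 members of flox/flox had Hbb-bt shares of 2.70%, 9.82%, 16.7%, 16.8%, 19.7%, 25.5% and 28.0% of beta UMIs, and the 2 highest were the 2 members with most haemoglobin.

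Barcodes just outside the rule had low Hbb-bt shares too. Over the barcodes at 1 to 10% haemoglobin the share was 4.31% (3.16 to 5.73) in wt/flox, over 36 barcodes, and 4.97% (2.17 to 9.56) in wt/wt, over 5. Under 1% it was 18.6% (12.5 to 26.0) in wt/flox, over 196 barcodes with mostly 1 globin UMI each. It was 6.45% (0.791 to 21.4) in wt/wt, on 2 Hbb-bt UMIs over 50 barcodes, and 0% (0 to 33.6) in flox/flox, over 16. The pooled members of flox/flox, wt/flox and wt/wt stood at 18.9%, 19.1% and 18.2%. Spearman's rho between haemoglobin share and Hbb-bt share over members was 0.71 (7 barcodes), 0.59 (264) and 0.62 (39) in flox/flox, wt/flox and wt/wt, given as a description since members share a library and beta UMIs enter both measures.

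Alpha UMIs, which the rule also used, gave another grouping, and nothing is supported by it. With members grouped by alpha UMIs as a percent of alpha and non-globin UMIs, the Hbb-bt share of beta UMIs in wt/flox was 9.98%, 17.2%, 20.9% and 23.3% at under 10%, 10 to 15%, 15 to 20% and 20% and over, with 58, 77, 85 and 44 members. In wt/wt it was 2.35%, 12.4%, 15.8% and 21.6%, with 4, 5, 14 and 16 members. The Hba-a2 share of alpha UMIs over the same ranges lay between 43.8% and 46.6% in wt/flox and between 42.8% and 45.1% in wt/wt. Members of wt/flox at 10 to 25% haemoglobin that held at least 1000 UMIs had an Hbb-bt share of 17.3%, against 10.4% for all at that range, so that value differed with the depth of the barcodes.

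**Figure D3:**
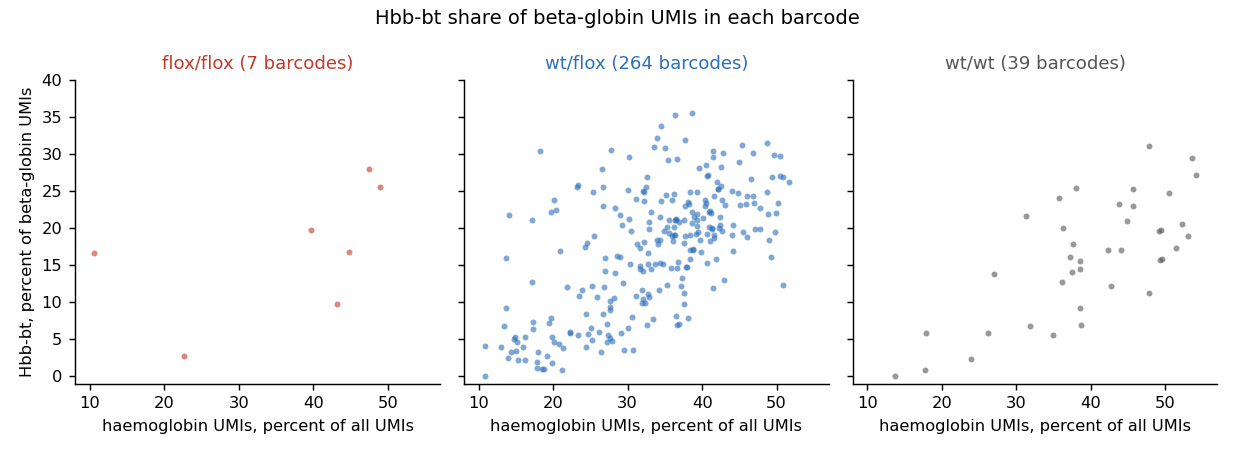
Hbb-bt as a percent of beta-globin UMIs against haemoglobin as a percent of all UMIs, 1 point per member, in flox/flox (7), wt/flox (264) and wt/wt (39), left to right. Points scatter widely between single members, around pooled shares in wt/flox of 10.4% at 10 to 25% haemoglobin and 19.99% at 25 to 50%, and in wt/wt of 2.35% and 17.4%.

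Other globin genes were not detected, apart from Hbq1a. Hbb-y, Hbb-bh1, Hbb-bh2, Hba-x and Hbq1b had 0 UMIs in the members of all 3 libraries. The exact Poisson interval of 0 UMIs reaches 1087, 21.8 and 160 CPM in flox/flox, wt/flox and wt/wt. The base of every CPM here is the UMIs that are neither globin nor mitochondrial. Mitochondrial UMIs were also left out of percents of non-globin UMIs, of thinning and of ratios per non-globin UMI below. Medians of non-globin UMIs include them. Hbq1a, a theta globin gene beside the alpha cluster, had 0, 5 and 1 UMIs in members and 0 in all other barcodes of each library.

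Alas2 was the marker of these barcodes that the rule did not use. It had 1, 168 and 31 UMIs in the members of flox/flox, wt/flox and wt/wt, in 1 of 7, 117 of 264 and 24 of 39 barcodes. Its level was 295 CPM (exact Poisson interval 7.46 to 1641), 993 CPM (848 to 1155) and 1341 CPM (911 to 1903), against 37.7, 104 and 91.5 CPM in the other barcodes. That is 9.56-fold (8.06 to 11.3) in wt/flox and 14.7-fold (9.89 to 21.0) in wt/wt. With 1 UMI, flox/flox gave a ratio interval from 0.197 to 43.8, and at this depth Alas2 could not tell its members from other barcodes.

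Alas2 was not limited to the members. It had a UMI in 3.604%, 9.31% and 7.91% of the other barcodes of flox/flox, wt/flox and wt/wt, and 99.4%, 97.1% and 99.1% of those had no globin UMI. With each barcode thinned to 300 non-globin UMIs, Alas2 was in 14.3%, 29.2% and 41.0% of members and in 1.25%, 3.02% and 2.71% of other barcodes, with 0 barcodes too shallow for it.

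With Alas2 included, 35 of the 95 erythroid list genes in the files were measured, meaning at least 20 UMIs over all members. In wt/flox 17 of the 35 were at least 1.5-fold higher in members than in other barcodes and 0 lower, where 4.37% of all 1465 measured genes were higher and 3.07% lower. In wt/wt 21 were higher and 0 lower, beside 18.6% and 7.51% of all. In flox/flox, where 252 of the 1465 genes had at least 3 UMIs in the 7 members, 6 list genes were higher and 1, Gpx1, lower, beside 7.58% and 1.02% of all. A gene was called only with at least 3 UMIs on its higher side. The 20 UMI minimum counted members alone, so a gene scarce in other barcodes could pass it only by being higher in members. This favours higher calls over lower ones, here and in each list below, so the counts are a description and no support. The lists and the 1.5-fold mark describe these libraries, and no list was tested.

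The measured genes of reticulocyte maturation and clearance were higher in members of wt/flox and wt/wt. All 8 measured genes of the list were at least 1.5-fold higher in wt/flox and in wt/wt, beside 4.37% and 18.6% of all measured genes. The median log2 ratio was 3.61 in wt/flox, where the median of all measured genes was 0.09. Some of the 8, such as Isg20 at 6.21 CPM in other barcodes of wt/flox, reached the 20 UMI minimum only by being high in members. The filter thus shaped this count. In flox/flox 2 of the 8 had at least 3 UMIs, and both were higher, beside 7.58% of all measured genes. There 3 UMIs stand for 884 CPM, so a gene scarce in other barcodes could only come out higher. That count is a description and no support. Together the list's 19 genes made up 0.530%, 0.357% and 0.489% of non-globin UMIs in the members of flox/flox, wt/flox and wt/wt, against 0.0927%, 0.0890% and 0.0834% in other barcodes.

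Mkrn1, a RING-type ubiquitin ligase, had 5, 83 and 18 UMIs in members of flox/flox, wt/flox and wt/wt, at 1473, 490 and 779 CPM, against 40.9, 31.1 and 34.4 CPM in other barcodes. Its ratios were 36.0-fold (11.6 to 84.8), 15.8-fold (12.2 to 20.2) and 22.6-fold (13.2 to 36.3). Tent5c, a poly(A) polymerase, had 1, 68 and 16 UMIs, with ratios of 24.6-fold (18.2 to 32.9) in wt/flox and 22.5-fold (12.7 to 37.2) in wt/wt. Its single UMI in flox/flox gave no usable ratio.

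The ubiquitin system was present in several further members of the list. Ube2o, which tags proteins for removal in late red cell maturation, was 9.41-fold higher in wt/flox (5.62 to 15.0) on 21 UMIs and 21.3-fold in wt/wt (6.76 to 51.6) on 5. Ube2l6 was 7.68-fold higher (5.83 to 9.97) and 7.23-fold higher (3.29 to 13.8). Ubb, a ubiquitin gene used by all cells, was 2.02-fold (1.67 to 2.41) and 2.79-fold (1.68 to 4.37) higher. Bnip3l, the receptor that removes mitochondria from reticulocytes, was 3.43-fold (2.70 to 4.30) and 2.77-fold (1.26 to 5.27) higher. Isg20, an exonuclease, had 2, 25 and 5 UMIs in flox/flox, wt/flox and wt/wt, and was 23.8-fold (14.2 to 38.7) higher in wt/flox and 51.1-fold (15.7 to 130) in wt/wt.

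Haem synthesis genes differed among themselves. Of its 6 measured genes, 1, 3 and 3 were higher in flox/flox, wt/flox and wt/wt and 0 were lower. Of all measured genes 7.58%, 4.37% and 18.6% were higher and 1.02%, 3.07% and 7.51% lower. In wt/flox its median log2 ratio was 0.57. The 1 in flox/flox was Slc25a39, at 2.70-fold (0.556 to 7.90) on 3 UMIs. Besides Alas2, Fech, which inserts iron into the ring in the last step, was 2.83-fold higher in wt/flox (2.07 to 3.79; 48 UMIs) and 3.10-fold in wt/wt (1.48 to 5.73; 10 UMIs), with 0 UMIs in flox/flox. Fam210b was called in both libraries at 1.52-fold (0.969 to 2.28) and 1.89-fold (0.514 to 4.86), with intervals that hold 1. Slc25a39, a mitochondrial carrier, was 1.46-fold (1.17 to 1.80) in wt/flox and 0.770-fold (0.309 to 1.59) in wt/wt.

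The middle steps of haem synthesis had few UMIs. In wt/flox Cpox, the sixth enzyme of the chain, was at 0.915-fold (0.565 to 1.41), and Tmem14c, a porphyrin transporter, at 0.803-fold (0.518 to 1.19). Alad, Uros, Urod, Abcb10, Abcb6 and Slc25a38, all under the 20 UMI minimum, had between 1 and 16 UMIs in wt/flox members, and Ppox had 0. Of these Uros was at 2.40-fold (1.02 to 4.82) on 8 UMIs. Hepatocytes also make haem.

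Of the membrane and skeleton list 2 genes were measured and both were higher in wt/flox and in wt/wt, beside 4.37% and 18.6% of all measured genes. Epb41, a protein of the membrane skeleton, was 6.07-fold higher in wt/flox (4.73 to 7.69) and 7.23-fold in wt/wt (4.03 to 12.0), with 1 UMI in flox/flox. Cd24a, a surface protein of young red cells, was 16.6-fold higher (9.38 to 28.2) on 19 UMIs and 53.9-fold (16.5 to 138) on 5. The anion exchanger Slc4a1, singled out after its values were seen, had 0, 9 and 0 UMIs in flox/flox, wt/flox and wt/wt and none in any other barcode.

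In red cell metabolism Bpgm led. Bpgm makes the phosphate that lowers the oxygen affinity of haemoglobin. It had 5, 82 and 18 UMIs in members of flox/flox, wt/flox and wt/wt, at 1473, 485 and 779 CPM, against 15.7, 20.3 and 17.2 CPM in other barcodes. Its ratios were 94.0-fold (30.1 to 224), 23.9-fold (18.2 to 31.2) and 45.3-fold (26.2 to 74.1). The list had 11 measured genes, of which 1, 3 and 6 were higher in flox/flox, wt/flox and wt/wt. Of all measured genes 7.58%, 4.37% and 18.6% were higher. Prdx2, a peroxidase abundant in red cells, was 1.96-fold higher (1.46 to 2.57) in wt/flox and 1.88-fold (0.755 to 3.89) in wt/wt. Gpx1, a glutathione peroxidase that hepatocytes also express, was at 0.459-fold (0.125 to 1.18) in flox/flox on 4 UMIs, 1.17-fold (1.08 to 1.25) in wt/flox and 1.19-fold (0.957 to 1.46) in wt/wt.

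Iron handling differed by gene. Slc25a37, or mitoferrin, which carries iron into mitochondria, was 8.57-fold higher in wt/flox (6.50 to 11.2; 65 UMIs) and 10.5-fold in wt/wt (4.17 to 21.9; 7 UMIs). It was the only one of 8 measured genes past 1.5-fold in wt/flox. Of all measured genes 7.58%, 4.37% and 18.6% were higher in flox/flox, wt/flox and wt/wt. In wt/wt 2 of the 8 were past it, the other being Ireb2, an iron sensor, at 1.56-fold (0.321 to 4.57) on 3 UMIs. In flox/flox 2 were, the ferritin chain Ftl1 at 1.72-fold (1.14 to 2.51) and the hepatocyte product Trf at 1.51-fold (1.06 to 2.11). The ferritin chain Fth1 stood at 1.20-fold (0.749 to 1.81), 1.25-fold and 1.22-fold in flox/flox, wt/flox and wt/wt. Ftl1 stood at 1.72-fold, 1.29-fold and 1.09-fold. The intervals of the chains overlap in flox/flox, and their order turned in wt/wt, so no difference between the chains is shown. Tfrc, the transferrin receptor of red cell precursors, had 1, 8 and 0 UMIs. Trf and Hamp were at 0.999-fold and 1.06-fold in wt/flox.

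Regulators of red cell production had few or no UMIs. Gata1, Klf1, Tal1, Nfe2, Gfi1b and Epor had 0 UMIs in the members of all 3 libraries, and Bcl11a likewise. None of the 14 list genes in the files reached 20 UMIs, and the list had 2, 26 and 6 UMIs in flox/flox, wt/flox and wt/wt. Of 20 cell cycle genes, 20, 14 and 18 had 0 UMIs, and the list made up 0, 0.0136% and 0.0130% of non-globin UMIs in members, against 0.0347%, 0.0321% and 0.0233% in others. For a gene at 0 the exact Poisson interval reaches 1087, 21.8 and 160 CPM.

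**Figure D4:**
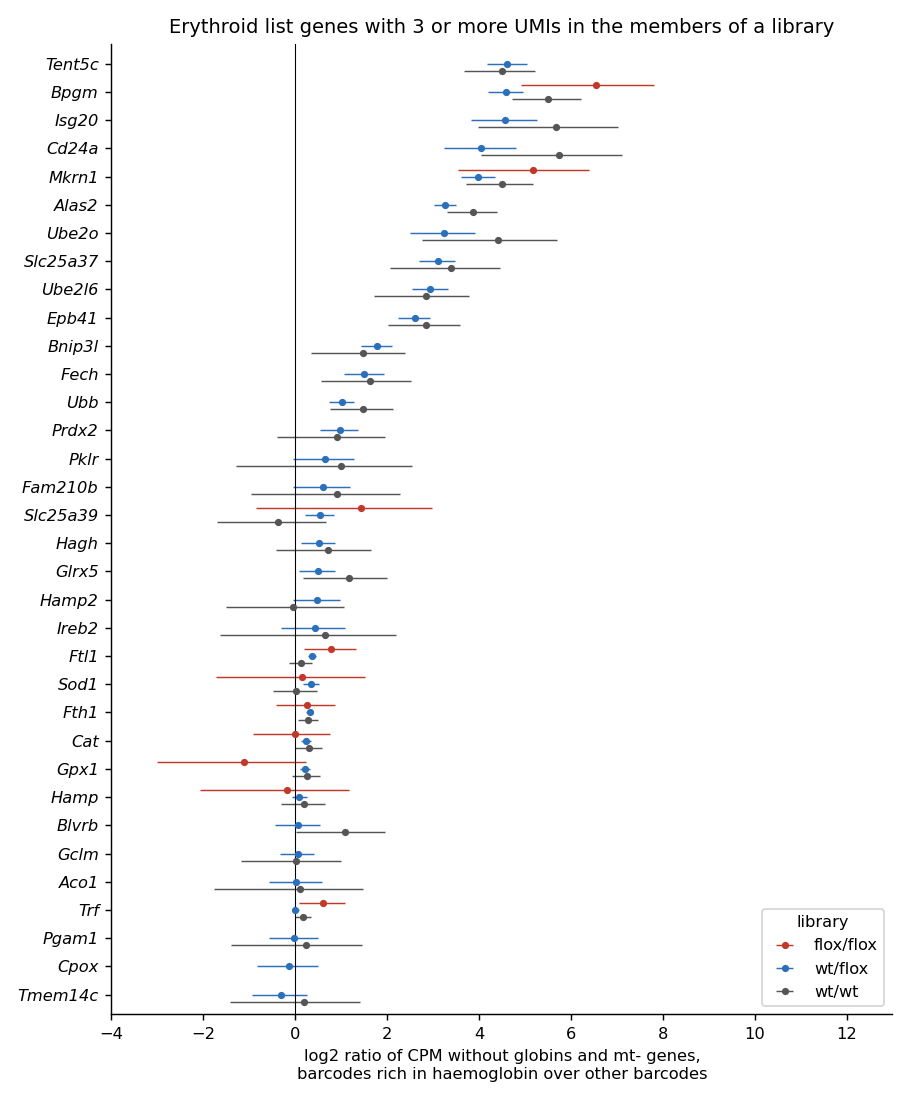
Log2 ratio of CPM, barcodes rich in haemoglobin over the other barcodes of the same library, for measured erythroid list genes, with exact conditional 95% intervals cut at the plot edge, for libraries with 3 or more UMIs of the gene in members. Tent5c, Bpgm, Isg20, Cd24a and Mkrn1 lie highest of those plotted by wt/flox, and Fth1, Cat, Hamp and Trf lie near 0 there.

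Over all genes with at least 5 UMIs in the members of each library, 80 in number, Bpgm and Mkrn1 had the largest smallest-of-3 ratios, 23.9-fold and 15.8-fold. The next was Sec61g, of the protein channel into the endoplasmic reticulum, at 3.04-fold, 1.79-fold and 2.67-fold. The other 12 of the first 15 (among them Ndufa4, Mt1, Fbp1, Uqcrq, Fth1, Fabp1, Cdo1, Wfdc21, Atp5e, Apoc1 and Dbi) had smallest ratios from 1.17-fold to 1.38-fold. In flox/flox members 5 UMIs stand for 1473 CPM. Bpgm and Mkrn1, at 15.7 and 40.9 CPM in other barcodes there, could enter only by being high in members. Their top ranks follow in part from this filter and are a description. Tent5c was left out of this rule because it had 1 UMI in flox/flox.

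Most members outside flox/flox showed at least 1 of a small set of these genes. Of the 8 genes Alas2, Bpgm, Mkrn1, Tent5c, Slc25a37, Epb41, Isg20 and Ube2l6, 4 of 7, 217 of 264 (82.2%) and 35 of 39 (89.7%) members had at least 1, against 26.7%, 27.6% and 26.6% of other barcodes. At least 3 of them were found in 2 of 7, 69 (26.1%) and 20 (51.3%) members, against 0.471%, 0.3003% and 0.295% of other barcodes. These 8 were picked after their values were seen.

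Malat1 was lower in members than in other barcodes of each library, and Neat1 in wt/flox and wt/wt. Malat1, a nuclear long RNA, was at 1473, 2340 and 1125 CPM in members of flox/flox, wt/flox and wt/wt, against 9588, 7670 and 6867 CPM in other barcodes. Its ratios were 0.154-fold (0.0499 to 0.358), 0.305-fold (0.276 to 0.337) and 0.164-fold (0.107 to 0.240). Neat1, another nuclear RNA, had 0, 39 and 4 UMIs in flox/flox, wt/flox and wt/wt, at 0.247-fold (0.176 to 0.338) in wt/flox and 0.189-fold (0.0515 to 0.484) in wt/wt. Among cytoskeletal genes Actb was at 0.565-fold (0.477 to 0.664) in wt/flox and 0.438-fold (0.240 to 0.736) in wt/wt. Tmsb4x was at 0.204-fold (0.152 to 0.269) in wt/flox, and its 1 UMI in wt/wt stood at 43.3 CPM against 1015 CPM. Neither had a UMI in flox/flox. These 4 genes were chosen after their values were seen.

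The members also held hepatocyte RNA at about the level of the other barcodes of the same library. All 12 hepatocyte markers were present in members of each library and made up 10.0%, 9.25% and 9.28% of non-globin UMIs, against 7.77%, 8.75% and 9.06% in other barcodes of flox/flox, wt/flox and wt/wt. Albumin transcripts (Alb) stood at 30044, 17277 and 27554 CPM in members, against 23238, 19557 and 27766 CPM. The fatty acid binding protein gene Fabp1 stood at 15906, 21034 and 15356 CPM, against 11037, 17197 and 12993 CPM. Thinned to 300 UMIs, Alb was in 100%, 99.6% and 100% of members and at least 2 hepatocyte markers were in all of them. Red cells do not make these products, and free RNA and a second cell in the droplet cannot be told apart here.

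Across genes with at least 10 UMIs in members, log2 levels in members and in other barcodes had a Pearson r of 0.94 over 38 genes in flox/flox, 0.94 over 1463 in wt/flox and 0.88 over 386 in wt/wt, a description across genes of 1 library. The levels in members and in other barcodes lay within 1.5-fold of each other for 73.7%, 92.7% and 83.4% of these genes in flox/flox, wt/flox and wt/wt.

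Markers of other liver cells were scarce. The 9 Kupffer markers had 0, 29 and 0 UMIs in members of flox/flox, wt/flox and wt/wt, and made up 0, 0.0171% and 0 of non-globin UMIs, against 0.0629%, 0.0558% and 0.0432% in others. Cd5l and C1qa led with 8 and 6 UMIs. Of the neutrophil list 11, 6 and 11 of 11 genes were at 0, and S100a9 and S100a8 had 26 and 18 UMIs in wt/flox. Of the endothelial list 10, 0 and 10 of 10 were at 0, and Kdr and Fcgr2b led. The platelet list had 1 UMI in all, of Clec1b, in wt/flox. The leading genes of the remaining lists had few UMIs over the 3 libraries. Lyz2 had 10, Plac8 5, Cd74 8, Ighm 2 and Dcn 4. Rgs5 had 3, Sox9 6, and Cd3d and Cd3e 1 each. Not all were scarcer in members than in other barcodes. Sox9 stood at 35.5 against 28.6 CPM in wt/flox, and Ighm at 86.5 against 46.7 CPM in wt/wt on 2 UMIs. The zeros in flox/flox rest on 3395 UMIs of its members and so cannot show that a list was absent.

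Members with at least 2 different markers of 1 class other than hepatocyte numbered 0, 10 and 1 in flox/flox, wt/flox and wt/wt, or 0%, 3.79% and 2.56%, against 17.2%, 20.3% and 14.0% of other barcodes. Thinned to 300 UMIs they were 0%, 2.65% and 2.56% of members, against 9.29%, 12.3% and 8.83% of other barcodes. The 10 in wt/flox had a median of 912 non-globin UMIs and Malat1 at 9334 CPM, against 626 UMIs and 1917 CPM in the other 254 members of that library. Whether they were droplets with 2 cells was not tested, and no doublet caller was run.

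Among members, Bpgm and Mkrn1 differed with the Hbb-bt share. In wt/flox 63 members had Hbb-bt under 10% of beta UMIs, 90 had 10 to 20% and 111 had 20% and over, and 9, 17 and 13 members did in wt/wt. These ranges and genes were picked after their values were seen. Per 10000 globin UMIs, Bpgm in wt/flox stood at 1.58 (0.191 to 5.70), 6.97 (4.37 to 10.6) and 12.9 (9.83 to 16.7) across the ranges from low to high. Mkrn1 stood at 0.789 (0.0200 to 4.39), 6.97 (4.37 to 10.6) and 13.4 (10.2 to 17.2). Genes and ranges chosen this way make the pattern a description.

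Alas2 did not show this gradient per globin UMI. In wt/flox it stood at 18.9 (12.1 to 28.2), 20.6 (15.9 to 26.3) and 17.6 (14.0 to 22.0) per 10000 globin UMIs. Bnip3l stood at 9.46, 6.97 and 10.3, and Fech at 3.94, 7.61 and 4.24. Slc25a37 stood at 3.94 (1.28 to 9.20), 3.80 (1.97 to 6.64) and 10.7 (7.90 to 14.2). In log2 terms, members at 20% and over against those under 10% had a ratio of -0.10 (-0.78 to 0.62) for Alas2 and of 1.44 (0.12 to 3.13) for Slc25a37 on 48 and 5 UMIs. Per non-globin UMI the ratio of Alas2 was 0.92 (0.25 to 1.65), so its order depends on the base. The same ratio per non-globin UMI was 2.47 (1.15 to 4.15) for Slc25a37.

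The same ranges in wt/wt rest on fewer UMIs. Bpgm had 1, 11 and 6 UMIs from the lowest range to the highest and Mkrn1 2, 5 and 11. On the base used for wt/flox, 10000 globin UMIs, Bpgm stood at 4.63, 13.5 and 8.35 and Mkrn1 at 9.25, 6.15 and 15.3. Neither gene climbed at every step in wt/wt. For Bpgm and Mkrn1 the intervals of the lowest and highest ranges overlapped.

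Members with a high Hbb-bt share also held more haemoglobin. Their median haemoglobin share in wt/flox was 22.2%, 35.1% and 39.0% across the 3 ranges and their median total 850, 977.5 and 1035 UMIs, while the median of non-globin UMIs was 649, 625.5 and 621. Malat1 per 10000 globin UMIs was 71.0, 29.2 and 47.7. The part of depth in the gradient was not tested.

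**Figure D5:**
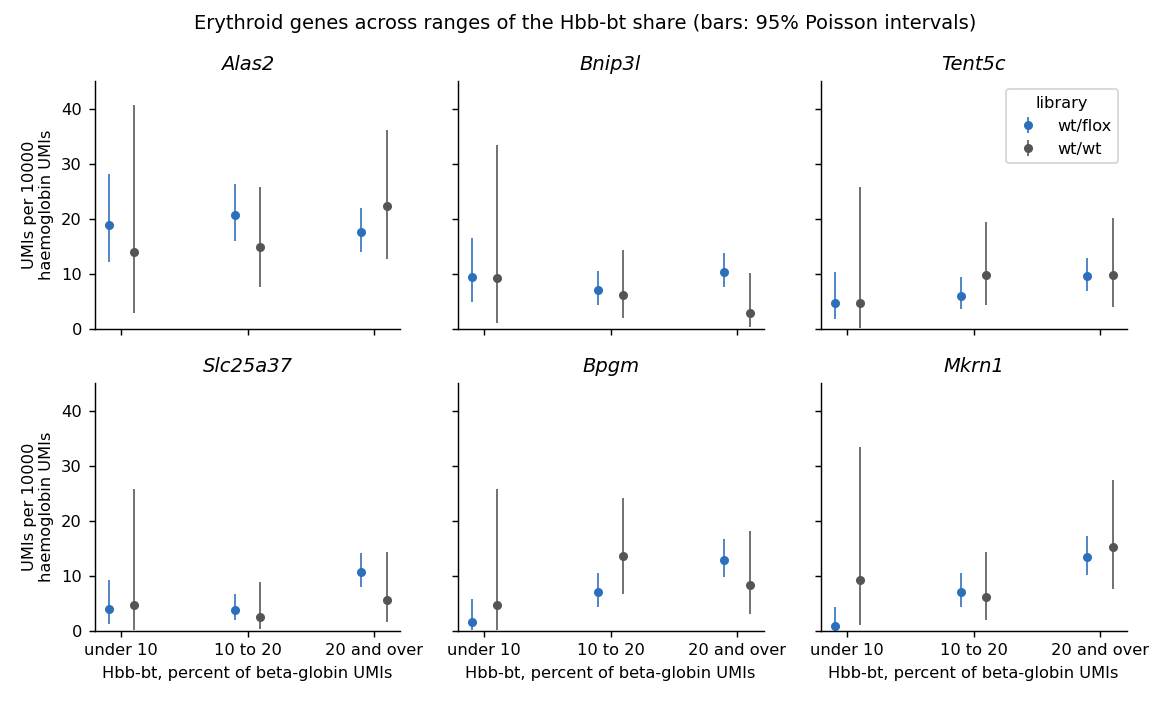
UMIs per 10000 haemoglobin UMIs (points, with exact 95% Poisson intervals) of 6 genes in members of wt/flox and wt/wt, grouped by the Hbb-bt percent of beta-globin UMIs. Bpgm and Mkrn1 climb across the ranges in wt/flox, to 12.9 and 13.4, and Slc25a37 is at 10.7 in the highest, while Alas2 stays between 17.6 and 20.6.

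Between the libraries, the ratio in the other barcodes is given beside that in the members, since hepatocyte RNA is in both. Flox/flox enters both of its comparisons below, so they share its 7 members and their 3395 UMIs that are neither globin nor mitochondrial. Of the 35 measured erythroid list genes, 4 were at least 1.5-fold higher and 2 lower in flox/flox over wt/flox (6.62% of all 1465 measured genes were higher and 2.32% lower). In flox/flox over wt/wt 3 were higher and 2 lower (6.76% higher, 3% lower of all). In wt/flox over wt/wt 1 was higher and 8 lower (12.3% higher, 18.1% lower of all).

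The erythroid genes of wt/flox over wt/wt depended on what they were counted against. Per non-globin UMI the log2 ratio was -0.43 (-0.99 to 0.17) for Alas2, -0.68 (-1.43 to 0.14) for Bpgm and -0.67 (-1.41 to 0.16) for Mkrn1. Per globin UMI it was 0.09 (-0.47 to 0.69) for Alas2, where the sign turned, and -0.16 (-0.91 to 0.66) for Bpgm and -0.14 (-0.89 to 0.68) for Mkrn1. Per 10000 globin UMIs Alas2 stood at 4.30, 18.9 and 17.7 in flox/flox, wt/flox and wt/wt, and Bpgm at 21.5, 9.21 and 10.3, on 1 and 5 UMIs in flox/flox. Against wt/flox and wt/wt the log2 ratio of Bpgm in flox/flox per globin UMI was 1.22 (-0.44 to 2.51) and 1.06 (-0.72 to 2.55), intervals that hold 0.

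Other genes were named by the rank of their ratio over all genes with enough UMIs. For flox/flox over both other libraries only 5 genes qualified on the higher side. All 5 are named here, so their ranks select nothing. Mup20, a major urinary protein made by hepatocytes, was highest in members of flox/flox, at 23859 CPM, against 10949 CPM in wt/flox and 8219 CPM in wt/wt. Its log2 ratios were 1.12 (0.78 to 1.45) and 1.54 (1.14 to 1.92), and 0.85 and 1.25 in the other barcodes. Serpina3k, Scp2, Ttr and Alb followed, with ratios over wt/flox of 0.64, 0.55, 0.17 and 0.80 in members, beside 0.38, -0.06, -0.32 and 0.25 in the other barcodes. For Scp2 and Ttr the sign over wt/flox differed between members and other barcodes. The member interval of Ttr (-0.32 to 0.61) holds 0, and that of Scp2 (0.02 to 1.03) begins near 0. Over wt/wt the signs were the same for Scp2 (0.55 and 0.13) and differed for Ttr (0.48 and -0.13). Both member intervals over wt/wt hold 0, so a change of sign in the members is not shown. Gpx1, Car3, Cyp2e1 and Chchd10 were among the lowest, on 3 to 4 UMIs each in flox/flox. Their ratios over wt/flox were -1.90, -1.50, -1.26 and -0.94 in members, beside -0.55, -0.66, -0.33 and -0.71 in the other barcodes. The member intervals of Cyp2e1 (-3.54 to 0.30) and Chchd10 (-2.82 to 0.43) hold 0. Those of Gpx1 (-3.78 to -0.54) and Car3 (-3.38 to -0.14) do not. Gsta3 had 2 UMIs.

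In wt/flox over wt/wt the metallothionein gene Mt1 was lowest, at 331 CPM in members of wt/flox against 4282 CPM in wt/wt, a log2 ratio of -3.69 (-4.19 to -3.21). In the other barcodes it was -3.72. Mup17 was highest at 2.21 (1.06 to 3.67), beside 2.13 in the other barcodes. Hsp90b1, Zfp36l1, Mup7, Atp5mpl and C8g followed on the higher side, at 1.79, 1.76, 1.75, 1.57 and 1.52 in members, beside 0.61, 1.35, 1.46, 0.07 and 0.20 in the other barcodes. These 5 had 3 to 10 UMIs each in members of wt/wt. The minimum of 30 UMIs was not asked of wt/wt here, so genes low there by counting error could rank high. The member interval of C8g (-0.09 to 3.84) holds 0. Those of Hsp90b1 (0.19 to 4.10), Zfp36l1, Mup7 and C8g hold the value of the other barcodes. That of Atp5mpl (0.16 to 3.48) does not. Sephs2, Scd1, Serpina1e, Tat and Ass1 followed on the lower side, at -0.87, -0.82, -0.75, -0.75 and -0.69, beside -0.45, -0.72, -0.67, -1.14 and -0.52.

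Of the type I interferon response list, Rsad2 alone among 3 measured genes was past 1.5-fold higher, in wt/flox. Of all measured genes 4.37% were higher there. Rsad2 was measured only through its 21 UMIs in members of wt/flox. The list's 33 genes in the files made up 0.236%, 0.216% and 0.134% of non-globin UMIs in members of flox/flox, wt/flox and wt/wt, against 0.409%, 0.214% and 0.146% in other barcodes. Ifitm3 was at 0.878-fold, 1.09-fold and 0.962-fold and Bst2 at 1.11-fold in wt/flox and 0.587-fold (0.121 to 1.72) in wt/wt, on 57 and 3 UMIs. Rsad2, or viperin, an antiviral enzyme, had 0, 21 and 0 UMIs, in 20 members of wt/flox, at 124 CPM (76.8 to 190), against 48.7, 21.9 and 9.81 CPM in the other barcodes of flox/flox, wt/flox and wt/wt. It was 5.66-fold higher in members of wt/flox (3.43 to 8.90), and 17 of the 21 UMIs lay in members with Hbb-bt at 20% of beta UMIs and over. For flox/flox and wt/wt members the exact Poisson intervals of the 0 UMIs reach 1087 and 160 CPM, both above the level in wt/flox. Per globin UMI the interval of the log2 ratio of wt/flox over wt/wt began at 0.03, above 0, and per non-globin UMI at -0.49, so that comparison depends on the base. Rsad2 was singled out after its values were seen.

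Genes of haemoglobin and haem clearance, which act in hepatocytes and macrophages, gave no call in the members. Of 3 measured, 0 were past 1.5-fold in any library. Of all measured genes 7.58%, 4.37% and 18.6% were higher and 1.02%, 3.07% and 7.51% lower in flox/flox, wt/flox and wt/wt. With 3 genes, a count of 0 does not set this list apart from those shares. Hp, or haptoglobin, was at 1.26-fold, 0.918-fold and 0.944-fold, and Hpx, or hemopexin, at 1.37-fold, 0.871-fold and 1.06-fold in flox/flox, wt/flox and wt/wt. The haemoglobin scavenger receptor Cd163 had 0, 2 and 0 UMIs and Hmox1, which opens the haem ring, 0, 5 and 0.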

How the data were processed

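Liver cells of 1 mouse library per genotype were measured with the 10x Genomics 3' v3.1 kit. The deposited files hold UMI counts, raw whole numbers for 32285 genes in 10000 barcodes per library, made by the authors with Cell Ranger 6.1.1 per the file headers. Seurat and the mm10 build stand in the submitters' processing notes.

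Barcodes over 40% mitochondrial UMIs were left out, and members had at least 10% globin UMIs. UMIs were summed per library over members and over other barcodes, and divided by UMIs that were neither globin nor mitochondrial (CPM). Ratios set counts under 3 to 3. A gene with at least 20 UMIs in members was called at 1.5-fold with at least 3 UMIs on the higher side, slightly stricter than planned. Intervals are exact 95% (Clopper-Pearson, Poisson, conditional binomial). With 1 library per group nothing was tested, and no doublet caller was run. Named genes were the globins, whole lists, or the largest and smallest ratios by rank, except where stated. Members and lists were chosen with earlier results of these data known. Of the list genes, 4 were not used here. Some genes that the rule names, or that the counts over lists include, are not reported here. Code was tested on simulated data. Tables were handled with pandas 2.3.3 and numpy 2.4.6 in Python 3.11.15, intervals with scipy 1.17.1 and figures with matplotlib 3.10.9. Alternatives changed the thresholds, the CPM base, the floor, the fold and the thinning.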

Additional observations from a re-analysis of the deposited data

How the results depend on the processing

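No paired analysis was possible because each genotype had 1 library. Of the values recomputed under other settings, 94 lay inside the counting interval of the value reported (counts of genes within 1.5 times of it), 24 moved and 1 reversed. A wide interval hides large changes, as for Alas2 in flox/flox, on 1 UMI, at 883 CPM with at least 1000 UMIs and 163 CPM with all UMIs as the base, against 295 CPM. The share of barcodes at 50% haemoglobin or more was 0% in flox/flox, 0.0605% in wt/flox and 0.0607% in wt/wt, and with 0 members flox/flox then gave no Alas2 or list value. At 20% or more wt/flox held 2.33%, and among barcodes with at least 1000 UMIs wt/wt held 0.842%. Alas2 stood at 1285 CPM in wt/flox and 2726 CPM in wt/wt at 50% haemoglobin or more, and at 631 and 730 CPM with all UMIs as the base. The count of erythroid list genes higher in members of flox/flox was 3 with at least 1000 UMIs and 20 with counts under 1 set to 1. At 50% haemoglobin or more it was 1 in wt/flox and 1 in wt/wt. Genes apart numbered 14 for flox/flox over wt/flox and 14 for flox/flox over wt/wt with counts under 1 set to 1, and 2 for the second at 2-fold. For wt/flox over wt/wt they numbered 0 at 50% haemoglobin or more, 4 with all UMIs as the base and 1 at 2-fold. Fewer members at 50% leave fewer UMIs, and the cause of the other changes was not tested. Thinned to 150 UMIs, 0% of wt/wt members had 2 markers of another class. Alternatives chosen after seeing the data were counts per globin UMI, which turned the Alas2 log2 ratio of wt/flox over wt/wt to 0.089, and settings of the Hbb-bt share. At 10 to 25% haemoglobin in wt/flox that share was 17.3% with at least 1000 UMIs and 8.99% without members holding 2 markers of another class. The 7 members of flox/flox limit every value of that library.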
